A study of Homo sapiens with 6 samples.

Results

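The proteasome genes of MDA-MB-231 cells, a line of invasive breast adenocarcinoma, were compared between cells that received a non-targeting siRNA (siCTR) and cells depleted of CRP2, the cysteine-rich protein encoded by CSRP2. The genes were chosen by symbol and type. Of 58395 genes in the count table, 50 were protein-coding with a symbol beginning with PSMA, PSMB, PSMC, PSMD, PSME, PSMF or PSMG. Counts were summed from poly(A) RNA in 3 siCTR and 3 siCRP2 libraries harvested 65 h after transfection by the labels, while the study's transfection methods give a slightly later time, and both groups shared the line, the medium and the harvest time. The siCRP2 cells were transfected with a single siRNA, siCRP2#a, so a second sequence against CSRP2 was not measured here. The column of each library carries a code, 0412, 0611 or 1311, and each code occurs once per group. The labels do not say what the code is.

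The proteasome is the protease complex that degrades ubiquitin-tagged proteins in the cytoplasm and nucleus. Its barrel, the 20S core, is built of alpha rings (PSMA genes) around beta rings (PSMB genes), and the beta rings hold the catalytic sites. The 19S cap sits on the barrel ends, where its ATPases (PSMC genes) unfold substrates and its other subunits (PSMD genes) bind and remove ubiquitin. Interferon replaces the constitutive catalytic subunits with immunoproteasome subunits, which change the peptides available to MHC class I. Cancer cells depend on the complex for the turnover of damaged and regulatory proteins, and the transcription factor encoded by NFE2L1 raises subunit genes together when proteasome activity is low.

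CSRP2 itself was measured at 13.7, 11.7 and 11.4 CPM (counts scaled to a common library size with edgeR's TMM factors) in the siCTR libraries 0412, 0611 and 1311, and at 2.17, 1.78 and 1.89 CPM in the siCRP2 libraries of the same codes, a log2 fold change of -2.66 (SE 0.178, edgeR adjusted p = 2.4e-08). Library totals ran from 17336798 to 39115778 counts, so that 3 counts, taken as the detection floor, were worth 0.0768 to 0.175 CPM. Of 5 markers of the line (VIM, CD44, AXL, EGFR, KRT18) all were detected, with a summed level of 3785 to 4978 CPM in siCTR and 3332 to 3937 CPM in siCRP2. Of 5 genes expected to be low in the line, PGR was at 0 and ESR1 did not exceed 0.0529 CPM, while ERBB2, CDH1 and EPCAM were present, with a sum of 137 to 142 CPM in siCTR and 144 to 150 CPM in siCRP2. Single markers changed more than these sums, with log2 fold changes of -1.06 for AXL (edgeR adjusted p = 3.1e-06), 0.94 for CDH1 (edgeR adjusted p = 0.00065) and -0.36 for EPCAM, which did not pass (edgeR adjusted p = 0.060). The sum of 5 markers of blood, endothelial and liver cells was 9.87 to 21.9 CPM in siCTR and 4.66 to 7.70 CPM in siCRP2, nearly all of it PECAM1 (log2 fold change -1.47, edgeR adjusted p = 0.0099). The part of these marker differences in the results was not tested. In bulk RNA, fewer cells that express a gene and less of its RNA per cell cannot be told apart.

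Of the 50 genes, 48 were tested, for which 2 or more of the 3 libraries of 1 group had to hold a count. The other 2, PSMA8, an alpha subunit of the testis, and PSMB11, a catalytic subunit of the thymus, had 0 counts in all 6 libraries. Another 2 genes were included by symbol alone. PSMC3IP encodes a meiotic recombination protein and PSME3IP1 a protein that binds PSME3. Neither is a subunit of the proteasome or one of its chaperones.

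After CRP2 knockdown, 10 of the 48 genes were higher and 1 was lower at an adjusted p under 0.05 (edgeR's quasi-likelihood test, Benjamini-Hochberg adjustment over 23806 genes), and 37 passed in neither direction. The background share called higher was 12.5% of all genes tested and 25.9% of the 10445 protein-coding genes that averaged 5 CPM or more, against 20.8% of the proteasome genes. The background share called lower was 11.5% and 18.0%, against 2.08% of the proteasome genes. The share called higher thus lay between both backgrounds, and the share called lower was under each. None of the 11 calls exceeded 2-fold, which 1.35% of all genes did as higher and 4.51% as lower (1.42% and 3.95% of the protein-coding genes of at least 5 CPM). The higher genes were PSMA5, PSMC2, PSMC3, PSMD4, PSMD8, PSMD12, PSMD14, PSMF1, PSMG1 and PSMC3IP, and the lower gene was PSME4.

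The median log2 fold change was 0.13 over the proteasome genes, 0.08 over protein-coding genes of at least 5 CPM and -0.02 over all genes tested. The fold changes of the proteasome genes were close together, with quartiles of 0.01 and 0.24, whereas those of the protein-coding background were -0.23 and 0.32. A log2 fold change within 0.25 of 0 was found for 36 of 48 proteasome genes, for 44.2% of that background and for 31.5% of all genes tested. The background was not matched to the proteasome genes in level, and many of these were far above 5 CPM. The part of level in the narrower spread was not tested. The fold change was positive in 37 of 48 (77.1%), against 57.8% of the protein-coding background. The plot of fold changes by place in the complex shows this narrow shift to the right, with PSME4 the furthest to the left.

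**Figure D1:**
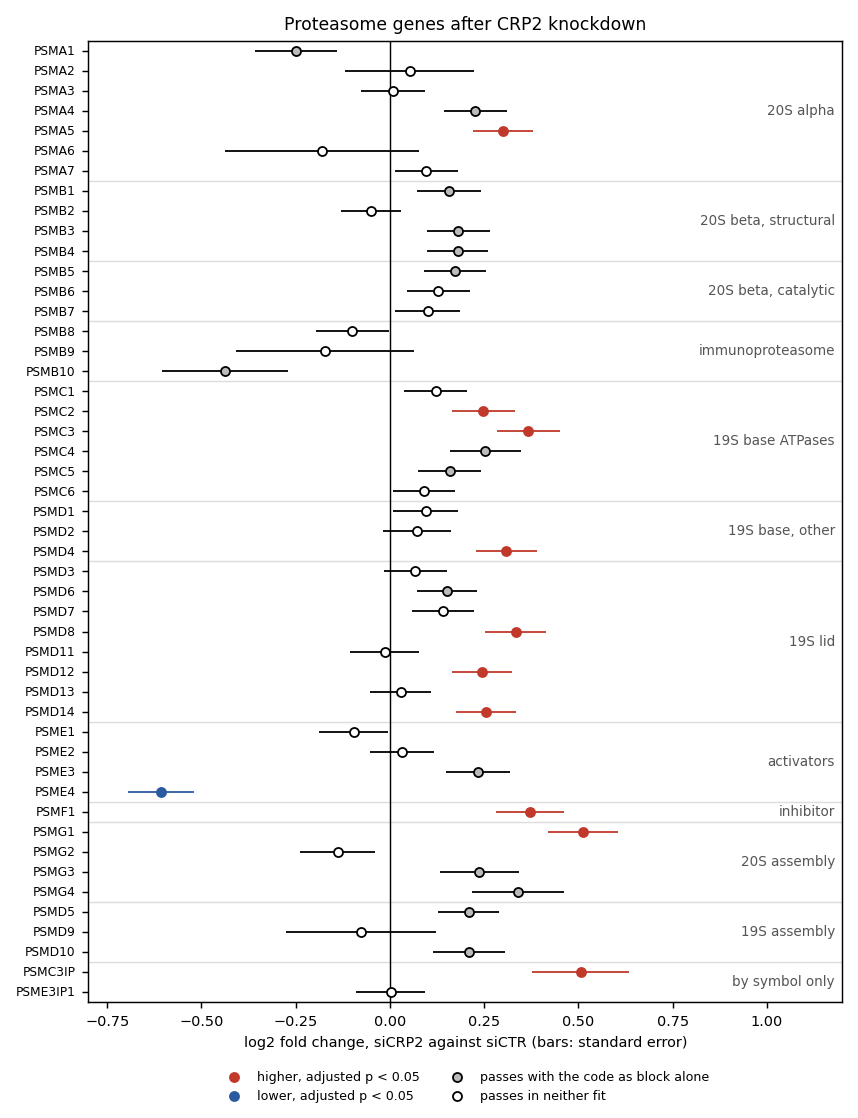
Log2 fold change of each of 48 tested proteasome genes in siCRP2 against siCTR (x axis, bars are standard errors, 3 libraries per group), grouped by place in the complex. Red points passed as higher (10 genes) and the blue point, PSME4, passed as lower. Grey points passed only with the column code as a block.

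When the code shared by a library of each group was entered as a block, 23 genes were higher and 3 lower, and 22 passed in neither direction. With that block the background rose as well, to 19.5% higher and 17.8% lower of all genes, and to 39.1% higher and 27.0% lower of the protein-coding genes of at least 5 CPM, against 47.9% of the proteasome genes called higher. The 3 lower genes were PSME4, PSMB10 and PSMA1. The p values of this fit took little account of a gene's own spread between codes. PSMD12 differed by 0.26, 0.24 and 0.24 within the codes, and PSMD1 by -0.04, 0.14 and 0.17. Both had an SE of 0.063 with the block. Between groups the libraries did not overlap for 26 genes, 23 above and 3 below, where the background was 19.4% above and 18.0% below among all genes and 35.1% above and 23.1% below among the protein-coding genes. The siCRP2 library exceeded the siCTR library of its own code in all 3 codes for 27 genes and fell short of it in all 3 for 6, where the background was 28.1% above and 30.2% below among all genes and 47.2% above and 32.7% below among the protein-coding genes. The count of higher genes rested most on the siCRP2 libraries 0611 and 1311. Without the first it was 3, and without the second 4. It was also 7 without the siCTR library 0611 and 8 without the siCTR library 1311. Without the siCTR library 0412 it was 10, and without the siCRP2 library 0412 it was 11.

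**Figure D2:**
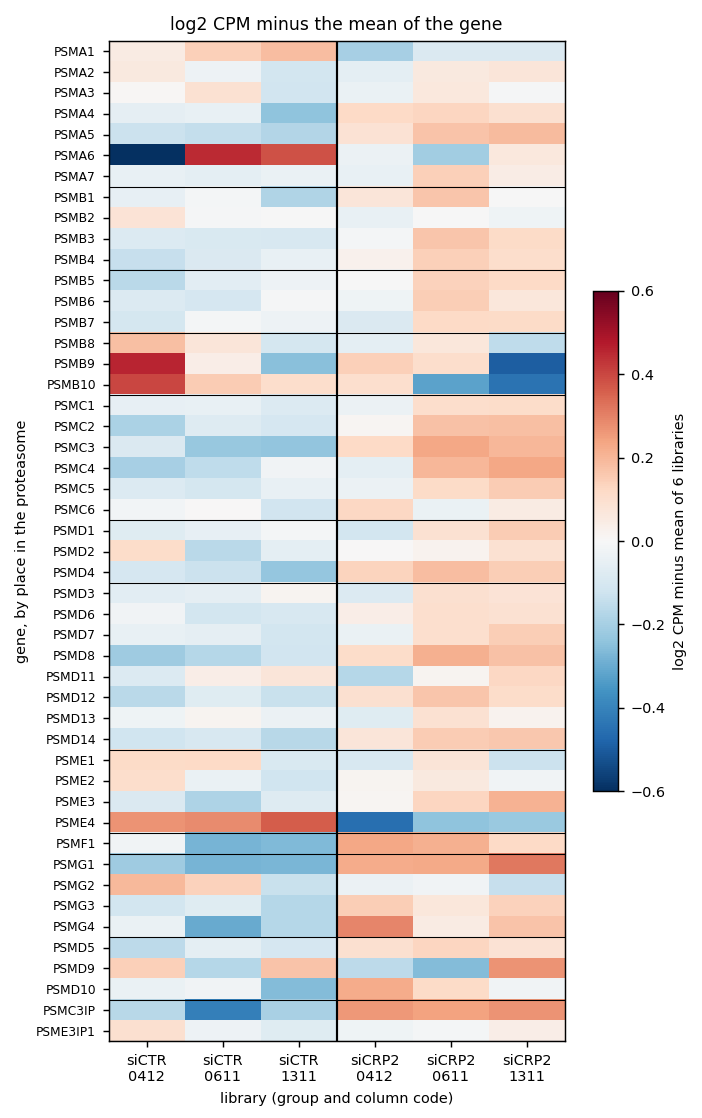
Log2 CPM of each tested gene minus its mean over 6 libraries, by library (columns, group and code) and gene (rows, by place in the complex). Colours end at 0.6 in either direction. PSME4 is high in all siCTR and low in all siCRP2 libraries, PSMG1 the reverse, and PSMB9 and PSMB10 are lower in code 1311 than in code 0412 in both groups.

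Promoter sequences were taken from RefSeq (GRCh38.p14), spanning 250 bases before to 50 bases after a start site, and 44 of the 50 genes matched an entry. The others were PSMA7, PSMB1, PSMB6, PSMB7, PSMD4 and PSMG3. The letters of known binding motifs were searched on both strands. CCAAT, the box bound by NF-Y, was found in 21 of 44 promoters (47.7%) and in 35.7% of all 27305 promoters of the table. TGACNNNGC, the antioxidant response element that NFE2L1 and NFE2L2 bind with MAF proteins, was found in 13 of 44 (29.5%) and in 13.6% of all. CCGGAAG, a core of ETS sites, was found in 14 of 44 (31.8%) and in 10.7% of all. The core of the interferon-stimulated response element, written as GAAA, any 2 bases and GAAA again, was found in 6 of 44 (13.6%) and in 3.65% of all. These are matches of letters and not shown to be bound sites. The promoters of the table were not matched to those of the proteasome genes in expression level or base composition. The part of these in the shares was not tested.

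Of 20 tested genes with CCAAT in the promoter 7 were higher, and of 22 without it 2 were higher and 1 lower. CCGGAAG gave a like split. Of 13 tested genes with it 5 were higher and 1 lower, and of 29 without it 4 were higher. The background share called higher was 25.9% of protein-coding genes of at least 5 CPM. The differences between these counts were not tested. Boxes of genes that were not called higher are not printed. The 7 genes are shown because they make up most of the higher genes that had a promoter entry, and capitals mark CCAAT or, read from the other strand, ATTGG. Each line gives the gene's own strand 5′ to 3′. In PSMD14 the box reads on both strands, as CCAATTGG, and 1 of the overlapping matches is printed, and PSMA5 held 2 boxes.
PSMA5, chr1:109426517-109426541, minus strand: gcgcgttggcCCAATcacctaggcg
PSMA5, chr1:109426488-109426512, minus strand: ctactaccagCCAATaggaagcagg
PSMC2, chr7:103347602-103347626, plus strand: ctgtctgagcCCAATttacttccgg
PSMC3, chr11:47426539-47426563, minus strand: cgcgtgtcggCCAATagcggcccca
PSMD8, chr19:38374473-38374497, plus strand: catgttcattATTGGaaccgtgagg
PSMD14, chr2:161308367-161308391, plus strand: tccgtcgtctCCAATtggccgtcgg
PSMG1, chr21:39183672-39183696, minus strand: accccctcccCCAATctgtaattta
PSMC3IP, chr17:42578028-42578052, minus strand: gaagcgtcttCCAATcccaacatta

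PSMG1 and PSME4 were the proteasome genes with the lowest adjusted p in each direction, and their promoters are shown whole. Capitals in PSMG1 mark CCAAT and then the antioxidant response element letters. Capitals in PSME4 mark CCGGAAG and then the antioxidant response element letters read from the other strand.
PSMG1 promoter, chr21:39183402-39183701, minus strand: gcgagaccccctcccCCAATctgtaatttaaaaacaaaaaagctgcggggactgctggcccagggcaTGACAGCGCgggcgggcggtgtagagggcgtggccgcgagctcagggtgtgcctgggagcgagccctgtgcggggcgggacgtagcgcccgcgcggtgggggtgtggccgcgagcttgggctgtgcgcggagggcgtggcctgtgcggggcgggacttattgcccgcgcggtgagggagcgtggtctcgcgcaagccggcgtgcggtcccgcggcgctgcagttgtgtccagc
PSME4 promoter, chr2:53970944-53971243, minus strand: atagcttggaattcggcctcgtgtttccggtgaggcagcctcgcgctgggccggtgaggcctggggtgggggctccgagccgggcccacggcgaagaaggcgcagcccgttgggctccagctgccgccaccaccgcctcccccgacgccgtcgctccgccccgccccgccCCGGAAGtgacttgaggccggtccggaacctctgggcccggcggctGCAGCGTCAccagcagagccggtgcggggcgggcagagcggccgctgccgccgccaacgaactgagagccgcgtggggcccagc
The antioxidant response element letters were thus found in a promoter of each direction. Over all tested genes with a promoter, 2 of 13 with these letters were higher and 1 lower, and 7 of 29 without them were higher.

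In the 20S core, 1 of the 14 constitutive subunits rose after CRP2 knockdown (7.14%) and none fell. Of protein-coding genes of at least 5 CPM, 25.9% rose and 18.0% fell. The core subunit that rose was PSMA5, an alpha ring subunit. It was at 175, 173 and 169 CPM in the siCTR libraries 0412, 0611 and 1311 and 203, 215 and 218 CPM in siCRP2. Every siCRP2 library was above every siCTR library. The log2 fold change was 0.30 (SE 0.0796, edgeR adjusted p = 0.010). The median over the 14 subunits was 0.11, and 11 of them had a positive value. Within codes the median was 0.06 in 0412, 0.18 in 0611 and 0.15 in 1311. With the code as a block 6 core subunits were higher and 1 lower, of which 4 of the higher were beta subunits.

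The alpha ring subunits spread more than the beta subunits. Among the 7 PSMA genes the log2 fold change ran from -0.25 for PSMA1 to 0.30 for PSMA5, with a median of 0.05 that ran from 0.0035 to 0.0982 when single libraries were left out. PSMA1 was at 26.1, 27.9 and 28.7 CPM in siCTR and at 22.0, 23.8 and 23.8 CPM in siCRP2. Its groups did not overlap, and it passed only with the block (edgeR adjusted p = 0.11 without and 0.012 with it). PSMA4 had a log2 fold change of 0.23 and also passed only with the block (edgeR adjusted p = 0.060 and 0.0010). PSMA6 was at 5.37 CPM in the siCTR library 0412 against 11.53 and 11.03 CPM in the other siCTR libraries. The siCRP2 libraries lay between these, at 8.25, 7.32 and 8.83 CPM. Its log2 fold change of -0.18 (edgeR adjusted p = 0.68) became -0.47 without that siCTR library (edgeR adjusted p = 0.037).

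Reads of some core genes could have been divided between gene models, or left uncounted where models share exons. PSMA2, PSMA6, PSMA1 and PSMB10 share 100%, 81.4%, 67.0% and 56.1% of their canonical transcript with exons of another protein-coding gene on the same strand, and PSMD9, a cap chaperone, shares 28.8%. The counts of these 5 genes are therefore uncertain. The other genes held at most 36 counts per group, which does not show how many reads were left uncounted. Without the 3 alpha subunits among them the alpha ring median was 0.16 over 4 genes, close to the beta ring median of 0.16 over 7. There were also 44 pseudogene entries with these symbol prefixes, of which 29 had a count and the highest had a mean of 2.64 CPM.

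The beta rings gave narrow values, none past the threshold. The log2 fold changes ran from -0.05 for PSMB2 to 0.18 for PSMB3. PSMB5, which carries the chymotrypsin-like activity that bortezomib inhibits, was at 152, 163 and 167 CPM in siCTR and 170, 188 and 185 CPM in siCRP2. The siCRP2 libraries were all above the siCTR libraries, by a log2 fold change of 0.17 (edgeR adjusted p = 0.15, with the block 0.019). PSMB6, the caspase-like subunit, had a log2 fold change of 0.13 (edgeR adjusted p = 0.30). PSMB7, the trypsin-like subunit, had one of 0.10 (edgeR adjusted p = 0.45). Of the structural beta subunits PSMB1, PSMB3 and PSMB4 passed with the block alone, at edgeR adjusted p = 0.034, 0.017 and 0.013.

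The 3 immunoproteasome catalytic subunits did not pass the test, and each had a negative log2 fold change. PSMB8, which takes the place of PSMB5, was at 82.5, 76.6 and 67.8 CPM in siCTR and 69.9, 76.3 and 65.6 CPM in siCRP2. The groups overlapped (log2 fold change -0.10, edgeR adjusted p = 0.51). PSMB9, which takes the place of PSMB6, was at 42.1, 31.5 and 25.8 CPM in siCTR and 33.9, 33.0 and 21.8 CPM in siCRP2. Its groups also overlapped (log2 fold change -0.17, SE 0.236, edgeR adjusted p = 0.67), and without the siCTR library 0412 the value was 0.04. The means of the 3 codes covered 0.67 on the log2 scale, more than the difference between the groups. PSMB10, which takes the place of PSMB7, was at 12.28, 10.37 and 10.02 CPM in siCTR and 9.998, 7.463 and 6.861 CPM in siCRP2. The lowest siCTR library was only just above the highest siCRP2 library. PSMB10 had a log2 fold change of -0.44 (SE 0.168, edgeR adjusted p = 0.070), and it was lower with the block (edgeR adjusted p = 0.00077).

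The median over the 3 immunoproteasome subunits was -0.17, against 0.11 for the constitutive core and 0.15 for the cap. In every code it was under the core and the cap, at -0.29 in 0412, -0.0048 in 0611 and -0.24 in 1311. It depended on single libraries. It shrank to -0.0326 without the siCTR library 0412 and to -0.0706 without the siCRP2 library 1311, and it was -0.33 without the siCTR library 1311 and -0.29 without the siCRP2 library 0412 or 0611. Without PSMB10, whose exons are shared, it was -0.14.

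Each immunoproteasome subunit was also set against its constitutive counterpart within a library. PSMB8 amounted to 54.2%, 46.9% and 40.6% of the PSMB5 level in the siCTR libraries and 41.1%, 40.7% and 35.4% in siCRP2, on CPM not divided by length. The ratio was lower in siCRP2 in all 3 codes, and the groups overlapped. The log2 ratio was -1.09 ± 0.209 (SD, n = 3) in siCTR and -1.36 ± 0.121 (SD, n = 3) in siCRP2. The difference was -0.27 (exact two-sided permutation test p = 0.3, adjusted 0.45 over 3 ratios). PSMB9 to PSMB6 differed by -0.29 (exact permutation p = 0.5, adjusted 0.5), with -0.37, -0.18 and -0.32 within the codes. PSMB10 to PSMB7 differed by -0.53 (exact permutation p = 0.3, adjusted 0.45), with -0.31, -0.60 and -0.68 within the codes. All 9 differences within codes were negative, but they come from the same 3 pairs of libraries. In code 0611 PSMB9 itself was higher in siCRP2, by 0.07 on the log2 scale, and PSMB8 differed by -0.0048. Their counterparts PSMB6 and PSMB5 were higher there by 0.25 and 0.20. In codes 0412 and 1311 PSMB8 and PSMB9 were lower in siCRP2, and PSMB10 was lower in every code. A test of 3 against 3 libraries cannot give a p under 0.1, so these ratios could not have passed.

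**Figure D3:**
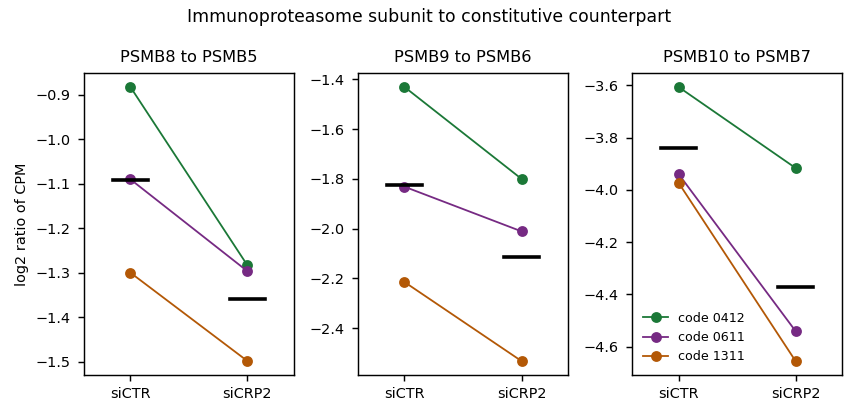
Log2 ratio of the CPM of an immunoproteasome subunit to that of its constitutive counterpart, by group (x axis). Points are libraries, lines join libraries of a code and black bars are group means. All 9 lines slope down from siCTR to siCRP2, while the codes lie apart by as much as the groups.

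The letters of the interferon-stimulated response element occurred in the promoters of PSMB10 and of the activator genes PSME1 and PSME2, which are printed because interferon is known to induce these genes. Capitals mark the match, which in PSME1 reads on the other strand. None of the 6 genes with these letters passed without the block, and their median log2 fold change was 0.11. PSMA4, PSMB4 and PSMG4, which also held the letters, were higher with the block, while PSMB10 was lower. The letters were not found in the promoters of PSMB8 and PSMB9.
PSMB10, chr16:67936852-67936881, minus strand: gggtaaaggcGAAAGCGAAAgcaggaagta
PSME1, chr14:24136189-24136218, plus strand: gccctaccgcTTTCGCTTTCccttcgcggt
PSME2, chr14:24146619-24146648, minus strand: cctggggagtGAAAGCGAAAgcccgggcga

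In the 19S cap 6 of 17 subunits rose (35.3%) and none fell, against 25.9% and 18.0% of protein-coding genes of at least 5 CPM, and the median log2 fold change was 0.15. The value was positive in 16 of 17, the exception being PSMD11 at -0.01. The parts of the cap had like counts, with 3 of 9 base subunits (median 0.16) and 3 of 8 lid subunits (median 0.15) higher. With the block 9 cap subunits were higher (52.9%, against 39.1% of that background) and none lower. Within codes the cap median was 0.06 in 0412, 0.21 in 0611 and 0.20 in 1311, near the values of the constitutive core. No test of the difference between core and cap was made.

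Of the base ATPases PSMC3 and PSMC2 rose. PSMC3, which was the more changed, was at 205, 186 and 185 CPM in siCTR and at 237, 256 and 249 CPM in siCRP2. The groups did not overlap, with a log2 fold change of 0.37 (SE 0.0832, edgeR adjusted p = 0.0034), and PSMC3 passed under all 15 alternatives of the fit. PSMC2 was at 170, 183 and 180 CPM in siCTR and 195, 218 and 219 CPM in siCRP2 (log2 fold change 0.25, SE 0.0839). Its edgeR adjusted p of 0.040 was the closest to the threshold among the 11 of the 48 genes that passed, and it held in 3 of 15 alternatives. PSMC4 and PSMC5 had log2 fold changes of 0.25 and 0.16 and passed with the block alone (edgeR adjusted p = 0.00049 and 0.038). PSMC1 and PSMC6 passed in neither fit, at 0.12 and 0.09. NRDE2 on the opposite strand covers 83.2% of the canonical PSMC1 transcript, and FTSJ3 13.7% of that of PSMC5. Whether the counting used strand is not given in the sources used here.

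PSMD4, a ubiquitin receptor of the cap, was at 123, 120 and 112 CPM in siCTR and 144, 150 and 146 CPM in siCRP2. Its groups were well apart, with a log2 fold change of 0.31 (SE 0.0806, edgeR adjusted p = 0.0091). The scaffold subunits of the base, PSMD1 and PSMD2, had values of 0.09 and 0.07 and passed in neither fit.

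In the lid, PSMD14 is the deubiquitinase that cuts ubiquitin chains from substrates before they are degraded. It was at 153, 156 and 148 CPM in siCTR and 175, 185 and 186 CPM in siCRP2 (log2 fold change 0.26, SE 0.0795, edgeR adjusted p = 0.026). PSMD8, a structural subunit, was at 155, 159 and 166 CPM in siCTR and 194, 208 and 203 CPM in siCRP2. It was the most changed lid subunit (log2 fold change 0.33, SE 0.0804, edgeR adjusted p = 0.0053). PSMD12, a scaffold subunit, was at 131, 139 and 134 CPM in siCTR and 156, 164 and 158 CPM in siCRP2 (log2 fold change 0.24, SE 0.0793, edgeR adjusted p = 0.032). In none of the 3 genes did the groups overlap. PSMD6 passed with the block alone, at a log2 fold change of 0.15 (edgeR adjusted p = 0.0497). PSMD3, PSMD7, PSMD11 and PSMD13 passed in neither fit, with values from -0.01 to 0.14. For PSMD7 a lncRNA on the opposite strand covers 51.6% of the canonical transcript.

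The calls differed in how much they rested on single libraries. Without the siCRP2 library 0611, PSMA5, PSMC2, PSMD4, PSMD8, PSMD12, PSMD14 and PSMF1 no longer passed, with edgeR adjusted p from 0.055 to 0.23. Without the siCRP2 library 1311, the same genes except PSMF1 no longer passed, with edgeR adjusted p from 0.059 to 0.25. PSMD12 also no longer passed when any other single library was left out, and PSMC2 when any siCTR library was. PSMD14 no longer passed without the siCTR library 0611 or 1311. The direction was kept in each case.

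The core can be opened by activators other than the cap. PSME4, the nuclear activator that also recognizes acetylated histones, had the greatest change of the 48 genes and was the only one called lower without the block. It was at 133, 134 and 142 CPM in siCTR and at 80.4, 93.2 and 94.6 CPM in siCRP2. Each siCRP2 library was far under each siCTR library, and the mean fell by 34.3%. The log2 fold change was -0.61 (SE 0.0880, edgeR adjusted p = 7.8e-05), ranging from -0.67 to -0.55 over the alternatives, all of which gave the call. Within the codes it was -0.72, -0.53 and -0.58.

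No other activator passed without the block. PSME1 and PSME2, which form the interferon-inducible ring that assists peptide production, had log2 fold changes of -0.10 and 0.03 (edgeR adjusted p = 0.50 and 0.84). PSME3, which forms the nuclear ring, was at 231, 216 and 233 CPM in siCTR and 248, 268 and 284 CPM in siCRP2. Its groups did not overlap, and it lay just outside the threshold (log2 fold change 0.23, edgeR adjusted p = 0.054, with the block 0.00083). PSMF1, an inhibitor that competes with the activators for the core, rose from 93.7, 78.6 and 79.2 CPM to 112, 110 and 103 CPM. Its lowest siCRP2 library was above its highest siCTR library, and the log2 fold change was 0.37 (SE 0.0913, edgeR adjusted p = 0.0061).

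Among 7 assembly chaperones 1 rose (14.3%, against 25.9% of protein-coding genes of at least 5 CPM) and none fell. Their median log2 fold change of 0.21 was above those of the core and the cap. PSMG1, which pairs with PSMG2 to build the alpha ring, was at 38.8, 37.0 and 37.2 CPM in siCTR and 52.4, 52.6 and 56.0 CPM in siCRP2. The groups were separated by more than their own spread, and the mean was 42.5% higher in siCRP2 (log2 fold change 0.51, SE 0.0928, edgeR adjusted p = 0.00059). It passed under all 15 alternatives. Its partner PSMG2 had a log2 fold change of -0.14 (edgeR adjusted p = 0.35), with 71.8, 68.9 and 57.1 CPM in siCTR and 61.2, 61.8 and 56.9 CPM in siCRP2. The other pair, PSMG3 and PSMG4, had values of 0.24 and 0.34 (edgeR adjusted p = 0.11 and 0.052) and both passed with the block (0.015 and 0.00087). PSMG4 was the first gene outside the threshold.

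The chaperones of the cap base gave smaller values. PSMD5 and PSMD10 both had log2 fold changes of 0.21 and passed with the block alone (edgeR adjusted p = 0.0042 and 0.0054). PSMD9 was at 3.94 to 5.68 CPM and had a value of -0.08 (edgeR adjusted p = 0.83). With the block 5 of the 7 chaperones were higher (71.4%, against 39.1% of protein-coding genes of at least 5 CPM).

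Of the genes included by symbol alone, PSMC3IP was at 12.20, 10.31 and 11.99 CPM in siCTR and 16.4, 16.2 and 16.5 CPM in siCRP2. Its log2 fold change was 0.51 (SE 0.129, edgeR adjusted p = 0.0077), with no overlap between groups. MLX on the opposite strand covers 57.2% of its canonical transcript and holds 6487 counts in siCTR and 6330 in siCRP2. PSME3IP1 had a log2 fold change of 0.00 (edgeR adjusted p = 0.99). Without both, 9 of 46 proteasome genes were higher (19.6%) and 1 was lower.

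Levels were compared between genes as CPM per kb of the canonical GENCODE transcript. Core subunits are present in equal number in the complex, but the measured levels of their transcripts differed widely. PSMA7 had the highest siCTR level in the core, at 272 CPM per kb, and PSMA2, whose exons are wholly shared, the lowest, at 3.59 CPM per kb. PSMB5, PSMB6 and PSMB7 were at 154, 140 and 159 CPM per kb. The immunoproteasome counterparts were lower, with PSMB8 at 67.3, PSMB9 at 32.6 and PSMB10 at 11.1 CPM per kb in siCTR, and each stayed under its constitutive counterpart in siCRP2. In the cap PSMD2 was highest, at 217 CPM per kb, and PSMC1 lowest, at 22.5 CPM per kb over a canonical transcript of 4390 bases. PSME1 stood at 210 and PSME2 at 141 CPM per kb, and PSME4 at 18.8 in siCTR and 12.3 in siCRP2. A canonical transcript longer than the isoform in use lowers a level per kb, which was not measured here. Reads left uncounted in shared exons would also lower it. This concerns PSMA1, PSMA2, PSMA6, PSMD9 and PSMB10, which shares 56.1% of its canonical transcript, and was not tested. If counting did not use strand, opposite-strand overlaps would matter too, of 83.2% in PSMC1, 57.2% in PSMC3IP, 51.6% in PSMD7 and 13.7% in PSMC5.

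**Figure D4:**
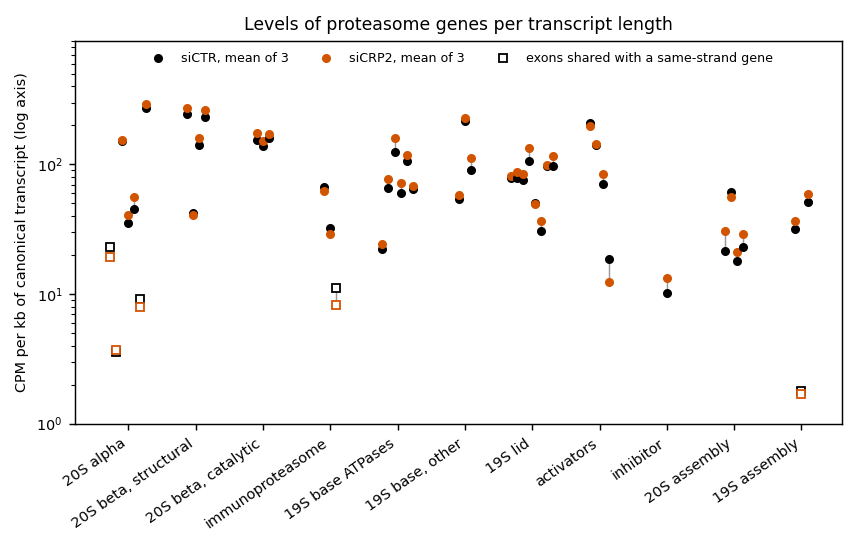
Mean level of each proteasome gene in siCTR (black) and siCRP2 (orange), as CPM per kb of canonical transcript on a log axis, by place in the complex. Open squares are genes whose exons are shared with a same-strand gene. The immunoproteasome subunits lie between 11.1 and 67.3 in siCTR, under the constitutive catalytic subunits at 140 to 159.

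Genes that act on the proteasome but have other symbols were taken in 5 lists of 50 genes in all. Of these 12 were higher and 9 lower (24.0% and 18.0%), near the background of protein-coding genes of at least 5 CPM (25.9% and 18.0%). With the block 21 were higher. The count of 12 became 4 without the siCRP2 library 0611 or 1311, and 7 without the siCTR library 0611 or the siCRP2 library 0412. The same background without the block is set beside the counts of each list below. No list was tested against it.

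Of 7 subunits and assembly factors with other symbols, 2 rose and 2 fell (background 25.9% and 18.0%). POMP, the maturation factor of the core, was at 99.4, 105 and 102 CPM in siCTR and 118, 126 and 115 CPM in siCRP2 (log2 fold change 0.23, edgeR adjusted p = 0.047, which held in 3 of 15 alternatives). PAAF1, which binds the cap ATPases, had a log2 fold change of 0.40 (edgeR adjusted p = 0.026). Both genes for the nuclear import of assembled proteasomes fell. AKIRIN2, the adaptor, was at 27.0, 21.8 and 21.1 CPM in siCTR and 12.7, 13.7 and 11.9 CPM in siCRP2 (log2 fold change -0.87, SE 0.132, edgeR adjusted p = 0.00011). IPO9, the importin that it binds, was at 171, 154 and 158 CPM in siCTR and 117, 121 and 120 CPM in siCRP2 (log2 fold change -0.43, SE 0.0812, edgeR adjusted p = 0.00079). For both, all siCRP2 libraries were under all siCTR libraries, and both passed under all 15 alternatives. The remaining members, SEM1, ADRM1 and FBXO7, had values from 0.02 to 0.15.

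Of 14 enzymes and shuttle proteins bound to the proteasome, 4 rose and 2 fell (background 25.9% and 18.0%). DDI2, the ubiquitin-directed protease that cuts and so activates the NFE2L1 protein, had 31.3, 30.2 and 29.1 CPM in siCTR and 48.4, 48.0 and 48.0 CPM in siCRP2. It was the most changed of these (log2 fold change 0.67, SE 0.0957, edgeR adjusted p = 6.6e-05). UCHL5, a deubiquitinase of the cap, TXNL1, a thioredoxin of the cap, and ZFAND2A, an arsenite-inducible cap protein, rose by log2 fold changes of 0.43, 0.30 and 0.61. The shuttle gene UBQLN2 fell by 0.52 on the log2 scale, whereas its relatives UBQLN1 and UBQLN4 did not pass (0.06 and -0.03).

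Of 9 genes that control subunit transcription, 2 rose and 1 fell (background 25.9% and 18.0%). NFE2L1 was at 424, 452 and 442 CPM in siCTR and 349, 385 and 363 CPM in siCRP2. The groups did not overlap (log2 fold change -0.26, SE 0.0832, edgeR adjusted p = 0.028), and the call held in 10 of 15 alternatives. NGLY1, the enzyme that strips sugars from the NFE2L1 protein, was at 42.1, 35.3 and 29.5 CPM in siCTR and 59.8, 50.4 and 48.0 CPM in siCRP2 (log2 fold change 0.56, SE 0.129, edgeR adjusted p = 0.0049). NFYB, a subunit of NF-Y, had a log2 fold change of 0.32 (edgeR adjusted p = 0.031), and NFYA and NFYC did not pass (-0.06 and 0.16). RNA levels do not show the processing of the NFE2L1 protein.

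**Figure D5:**
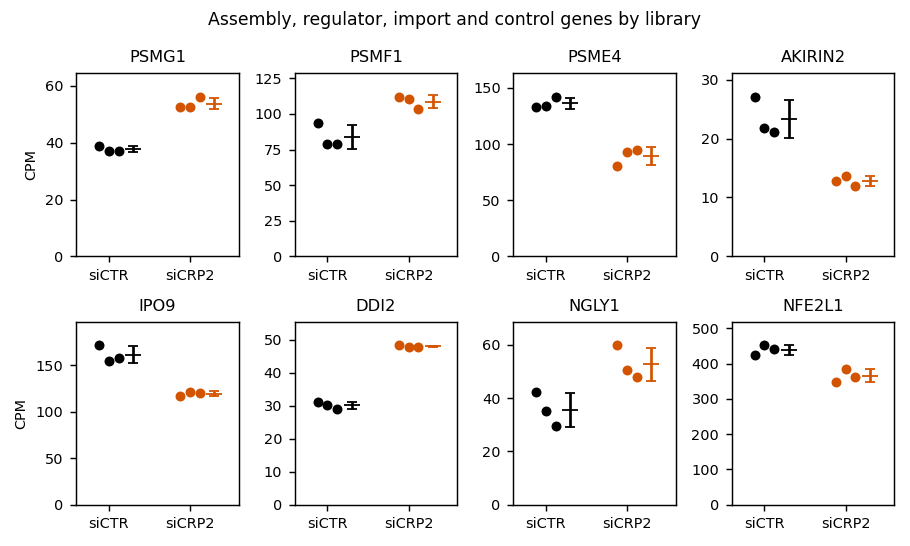
CPM per library (points, from left to right the codes 0412, 0611 and 1311) with mean and SD (bars, n = 3) of 8 genes in siCTR (black) and siCRP2 (orange), axes from 0. PSMG1, PSMF1, DDI2 and NGLY1 lie higher in siCRP2 and PSME4, AKIRIN2, IPO9 and NFE2L1 lower, with no overlap between groups in any panel.

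Of 10 ubiquitin and VCP segregase genes 2 rose and none fell (background 25.9% and 18.0%). These were UBB, a polyubiquitin gene, with a log2 fold change of 0.27 (edgeR adjusted p = 0.024), and UFD1, a VCP cofactor, with one of 0.34 (edgeR adjusted p = 0.013). VCP, the segregase itself, had a value of 0.08 and did not pass.

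Of 10 inducers and neighbours of the immunoproteasome genes 2 rose and 4 fell (background 25.9% and 18.0%). TAP2, the peptide transporter gene next to PSMB8, was at 73.0, 57.0 and 57.3 CPM in siCTR and 27.8, 31.7 and 31.4 CPM in siCRP2 (log2 fold change -1.04, SE 0.113, edgeR adjusted p = 4.3e-06). IRF1, the interferon-induced transcription factor, was at 119, 114 and 103 CPM in siCTR and 82.9, 74.1 and 66.4 CPM in siCRP2 (log2 fold change -0.59, SE 0.0976, edgeR adjusted p = 0.00025). NLRC5, the transactivator of MHC class I genes, and IFNGR1, a chain of the interferon-gamma receptor, fell by 0.44 and 0.59 on the log2 scale. JAK1, a kinase of interferon signalling, rose by a log2 fold change of 0.40 (edgeR adjusted p = 0.0011). The list therefore held changes in both directions, with a median of 0.01.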

How the data were processed

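RNA of 6 MDA-MB-231 samples was sequenced. The deposited table holds unnormalized counts of reads per gene. Per their methods, the authors aligned read pairs to GRCh38 and took the gene counts that STAR gives. The version, annotation and strand setting were not given in the sources used here. The methods name a stranded kit and the labels a standard one. Libraries were grouped by labels and column names. The study calls the libraries of a group biological replicates, while the labels do not say whether they were separate cultures. Counts of replicates disagreed beyond sampling (chi-square over its degrees of freedom, 12.4 to 48.3).

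Symbols came from GENCODE release 44 (57754 of 58395 identifiers). The members and lists were chosen with earlier results of these data known. Genes with a count above 0 in at least 2 of 3 libraries of a group were tested in R 4.3.3 with edgeR 4.0.16, whose quasi-likelihood test was run with robust estimation on TMM-scaled counts, with group alone as the term and Benjamini-Hochberg adjustment. The log2 CPM in ratios had a prior count of 2. The test was checked on simulated data. All genes passing the threshold were named, with the catalytic, activator, inhibitor and chaperone genes, the extremes of level, the genes nearest the threshold, those sharing exons or changing call, and up to 4 called genes of each related list with the smallest p.

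Alternatives were DESeq2 1.42.0, edgeR's exact test, other scaling and filters, protein-coding genes only, leaving out each library, and the column code as a replicate block. Libraries of a code deviated together from their group means (correlations of 0.723, 0.459 and 0.744 over 10827 genes, at most 0.114 between codes), so the codes were taken to pair the libraries. Counting error alone sets the detection floor of 3 counts. Some genes counted in the lists are not reported here by name.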

Additional observations from a re-analysis of the deposited data

How the results depend on the processing

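The count of 10 proteasome genes higher in siCRP2 was 23 with the replicate block of column codes. It was 15 with library totals alone, where PSMA4, PSMC4, PSME3, PSMG4 and PSMD5 were added, and 8 with DESeq2's size factors. With edgeR's exact test, which the study used, and with no filter it was 7, and PSMC2, PSMD12 and PSMD14 were lost. Leaving out each library in turn it ran from 3 to 11. The count of 1 lower gene was 2 with DESeq2's Wald test and with no filter, where PSMB10 was added, 2 with filterByExpr and with protein-coding genes only, where PSMA1 was added, and 3 with the block. It ran from 1 to 2 over the left-out libraries. Of the 50 related genes the 12 higher became 21 with the block and 4 to 12 over the left-out libraries. The median log2 fold change of the alpha ring was 0.16 without the members that share exons, an alternative chosen after seeing the data, and that of the cap base was 0.11 with filterByExpr. Over the left-out libraries the medians ran from 0.0035 to 0.0982 for the alpha ring (0.0054 with filterByExpr), from 0.0813 without the siCRP2 library 0611 to 0.18 for the beta rings, from -0.33 to -0.0326 for the immunoproteasome subunits and from 0.0976 without the siCRP2 library 1311 to 0.20 for the cap base. PSMB9 turned to 0.0397 without the siCTR library 0412. PSME2, which ran from -0.0195 to 0.0971 over the left-out libraries, turned to -0.0135 with filterByExpr, to -0.0195 without the siCTR library 1311 and to -0.0185 without the siCRP2 library 0611. The causes of these changes were not tested, except that a left-out library leaves fewer samples and a block removes the spread between codes. The p values of the fit with the block took little account of a gene's own spread. PSMC3, PSMG1, PSME4 and PSMC3IP passed in all 15 alternatives, PSMF1 in 14, PSMA5, PSMD4 and PSMD8 in 13, PSMD14 in 9, PSMD12 in 6 and PSMC2 in 3. Depth limits the statement on PSMA8 and PSMB11, whose 0 counts allow a level of up to 0.0768 to 0.175 CPM by library.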
